A study of Drosophila melanogaster with 5 samples.

Results

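The chromatin of 7 genes of the *Drosophila* sex determination and dosage compensation pathways was described in 2 neuron types: *fru*, *dsx*, *tra*, *Sxl*, *msl-2*, *roX1* and *roX2*. The members were the regions of the authors' comparison table whose nearest gene, in the authors' annotation, was one of these 7, and they came to 109 of 80590 regions. *fru* held 56 of them, *dsx* 21, *roX1* 12, *Sxl* 9, *tra* 5, *msl-2* 3 and *roX2* 3. Each region was then read in 5 peak lists, 1 for each library, through the peaks that overlapped it by at least 1 bp.

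The libraries were made by ATAC-seq, in which the Tn5 transposase inserts adapters into open DNA, from nuclei of adult fly heads. The dopamine group was 2 libraries of nuclei labelled with nuclear GFP under *TH-Gal4*, a driver built from the regulatory DNA of the tyrosine hydroxylase gene. The GABA group was 3 libraries of nuclei labelled under *vGAT-Gal4*, a driver for the vesicular GABA transporter. In both groups, nuclei came from pooled heads of frozen flies and were sorted by flow cytometry, so each library is limited to what its driver labels and its gate keeps. The age and sex of the flies are not given in the sources used here, and sex was not inferred. Nothing in the labels says that libraries of 1 group came from separate cultures, so p-values measure only the spread between these libraries, which may be technical.

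In flies, *Sxl* is the switch of the pathway. Its RNA-binding protein is made in females, directs the splicing of *tra* and blocks the translation of *msl-2*. The Tra protein in turn directs the splicing of *dsx* and *fru*, whose sex-specific transcription factors shape the body and the circuits for courtship. In males, Msl-2 and the noncoding RNAs *roX1* and *roX2* form the complex that raises transcription from the X chromosome. The steps of this cascade are largely splicing and translation, while ATAC-seq reads openness of DNA, so values below say nothing of transcripts or proteins.

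The peak lists differed in length and range. There were 69464 and 69940 peaks in the lists of dopamine libraries, against 81638 to 107219 for GABA. Fold enrichment is the ratio of the reads at a peak's summit to the local background. It reached 8.49 and 11.2 in the dopamine libraries, and from 16.01 to 21.5 in those of GABA neurons. The deposited lists hold no read numbers. The study's supplement lists reads and a depth after removal of duplicates for each library, where the dopamine libraries are not the shallower ones. It also lists a higher share of duplicates for both dopamine libraries than for any GABA library. Those values were not used here, and the part of depth in the shorter dopamine lists was not tested. For the comparison of neuron types, the log2 fold enrichment of the highest peak over each region was therefore put on 1 distribution over the 5 lists and fitted with limma, in the 16601 regions with a peak in all 5. A difference was called where the p-value, adjusted over all 16601, was under 0.05, and a single region compared by an exact permutation test of 2 against 3 libraries could not have gone below 0.2. Among all regions fitted, 25.3% were higher in dopamine and 27.8% in GABA libraries. Regions over an annotated start site leaned the other way, with 31.7% higher in dopamine and 22.1% higher in GABA.

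Markers of the labelled neurons were clear for GABA and mixed for dopamine libraries. The start of *ple*, the tyrosine hydroxylase gene, was 3.36-fold higher in dopamine libraries. The starts of the dopamine transporter gene *DAT* (log2 difference -0.14, adjusted p 0.428) and of *Ddc* (0.31, adjusted p 0.0927) did not pass. Of the 2 fitted *DAT* regions, the one not over its start was higher in dopamine libraries. *Vmat*, the monoamine transporter gene, had a peak at percentile 24.2 of dopamine list 1, none in list 2, and peaks at 53.4 to 63.2 of the GABA lists. The starts of *Gad1* and *VGAT*, which make and load GABA, were 2.29-fold and 2.48-fold higher in GABA libraries. Markers of other cells moved too. *VGlut* (2.29-fold) and *ChAT* (1.99-fold), markers of glutamatergic and cholinergic neurons, were higher in GABA libraries at their starts, while the glial *moody* (1.85-fold) and the epidermal *grh* (1.74-fold) were higher in dopamine libraries. By list, 2 of 6 tested dopaminergic regions were higher in dopamine libraries and 3 of 3 GABAergic ones in GABA libraries. In addition, 2 of 2 tested cholinergic regions and 1 of 1 glutamatergic region were higher in GABA libraries, 4 of 7 epidermal regions were higher in dopamine libraries, and of 5 glial regions 1 was higher in dopamine and 2 in GABA libraries. The highest peaks of cholinergic genes ranked at percentiles 46.4 to 63.8 of the dopamine lists and 90.8 to 96.1 of the GABA lists, and those of *grh* at 99.3 to 99.4 and 93.4 to 96.0. None of 31 photoreceptor regions had a peak in all 5 lists, but *trp* peaked at percentiles 82.8 to 87.7 of the GABA lists with no peak in either dopamine list. *chp* peaked at 33.7 to 49.8 of the GABA lists and at 13.5 of dopamine list 2, and *ninaE* in all 5, at 56.0 and 69.9 against 48.0 to 68.3. Of the fat body genes, *Yp1* peaked at 18.9 of dopamine list 1 and 11.9 to 41.2 of the GABA lists, and *Lsp2* was not analysed here. The part of these other cells in the values of the 7 genes was not tested.

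Of the 109 member regions, 29 had a peak in all 5 lists and 7 had none. Among the 29, 10 were higher in dopamine and 7 in GABA libraries (34.5% and 24.1%, beside 25.3% and 27.8% of all regions fitted), with a median log2 difference of 0.09 beside -0.02 over all regions. With median centring in place of the common distribution, the split turned to 7 higher in dopamine and 11 in GABA libraries. Over all regions fitted, the counts moved the same way, from 4204 and 4608 to 3297 and 5072. Peaks in both dopamine lists and no GABA list covered 7 member regions (6.4%, beside 8.42% of all regions), and peaks in all 3 GABA lists and no dopamine list covered 13 (11.9%, beside 13.2%). Percentiles within the lists lay wholly apart, dopamine above GABA, in 21 regions (19.3%, beside 16.1%), and GABA above dopamine in 30 (27.5%, beside 26.9%). Without dopamine library 1, 11 regions had peaks in dopamine alone, and without dopamine library 2, 33 had dopamine percentiles apart and above. The shares over all regions without these libraries are not given here. As a group the 7 genes were near the background, with single genes on either side of it.

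**Figure D1:**
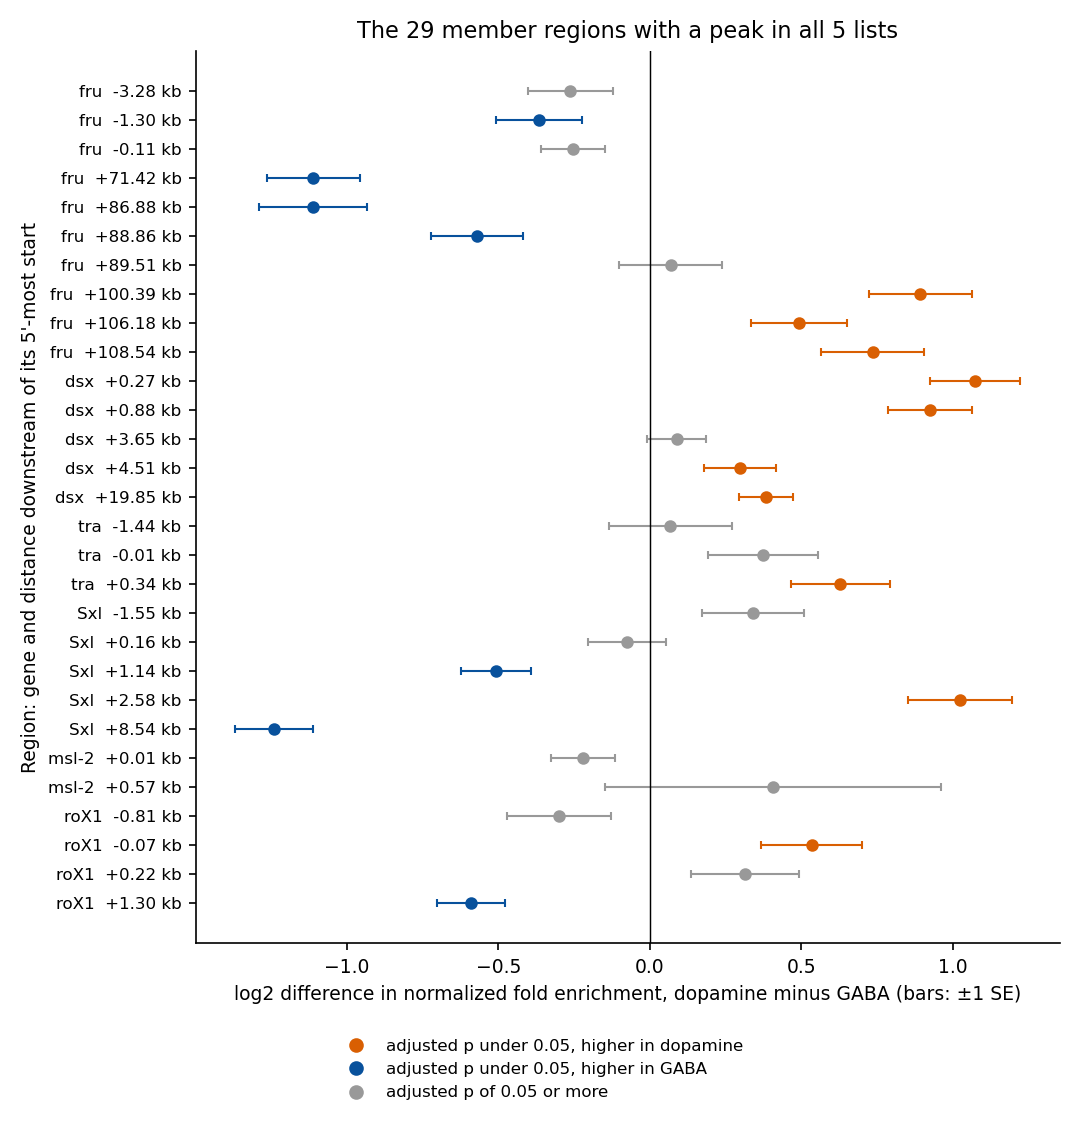
Log2 difference in normalized fold enrichment (dopamine minus GABA, x axis, bars of 1 SE) for the 29 member regions with a peak in all 5 lists, each named by its gene and its distance from the gene's most 5′ start. The *dsx* regions lie at or right of 0, while the called *fru* regions lie left of 0 up to 88.9 kb from its start and right of 0 beyond 100 kb.

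*fru* encodes a family of BTB zinc finger transcription factors. Transcripts from its most distal promoter are spliced differently in males and females and build the male courtship circuit, while promoters nearer the coding exons serve both sexes. The gene lies on the minus strand of chromosome arm 3R (chr3R:18414273-18545586 in Release 6), and the authors' annotation assigned its regions to 7 start sites. The distal start was open in all 5 libraries. Of the fitted regions that were called, those up to 88.9 kb downstream were higher in GABA libraries and those past 100 kb in dopamine libraries. This division by position was drawn after the values were seen.

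The region over the distal start of *fru* (chr3R:18545141-18546246) had the highest mean signal of all 109, at 1875 size-factor-scaled reads by the authors' mean. Its fold enrichment was 5.56 and 7.17 in the dopamine libraries and 10.2, 9.38 and 8.80 in the GABA libraries. These peaks ranked at percentiles 97.4 and 96.9 of the dopamine lists and between 98.7 and 99.7 of the GABA lists, so the groups did not overlap. The fitted difference was nevertheless small, 1.19-fold higher in GABA libraries (log2 difference -0.25, SE 0.105), and missed the threshold at an adjusted p of 0.0511. It passed without GABA library 2 (adjusted p 0.0356) and among regions of at least median signal (0.0472), with median centring it was -0.68 (adjusted p 6.61e-05), and by -log10 q it was -0.87 (1.02e-04). The nearest summit lay 26 to 59 bp upstream of the start in the 5 libraries.

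Further regions stood upstream of the distal start of *fru*. The region 1.3 kb upstream (chr3R:18546418-18547348) read 3.23 and 4.10 in dopamine and 4.71, 4.55 and 4.16 in GABA libraries, where the lowest GABA value stood just above the higher dopamine value. It was 1.29-fold higher in GABA libraries (log2 difference -0.37, SE 0.143, adjusted p 0.0389). This call was lost without any 1 of 4 libraries: at adjusted p 0.162 without dopamine 1, 0.183 without dopamine 2, 0.0727 without GABA 1 and 0.0585 without GABA 3. The intergenic region farther upstream (chr3R:18548576-18549157) read 3.76 and 5.01 in dopamine and 4.86, 5.22 and 5.17 in GABA libraries, and did not pass (log2 difference -0.26, SE 0.140, adjusted p 0.124), although it did by -log10 q (adjusted p 9.32e-04).

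Of the other starts to which *fru* regions were assigned, none had a peak within 250 bp in all 5 lists, and 3 had none in any list. The start 41.5 kb downstream had only weak GABA peaks, at 1.84 and 1.98 in libraries 1 and 3. The start 64.9 kb downstream had peaks of 4.02 and 2.94 in GABA libraries 1 and 3, and within 500 bp also of 2.62 in dopamine library 2 and 3.75 in GABA library 2. At the start farthest 3′, 106.8 kb downstream, the pattern was the opposite one. There the dopamine libraries had peaks of 3.98 and 4.32, with summits 38 and 39 bp upstream of the start, and no GABA list had a peak within 250 bp. The nearest GABA summits lay 400 to 598 bp upstream. The region over this start (chr3R:18438649-18438851) was the single *fru* region with peaks in both dopamine lists and no GABA list.

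**Figure D2:**
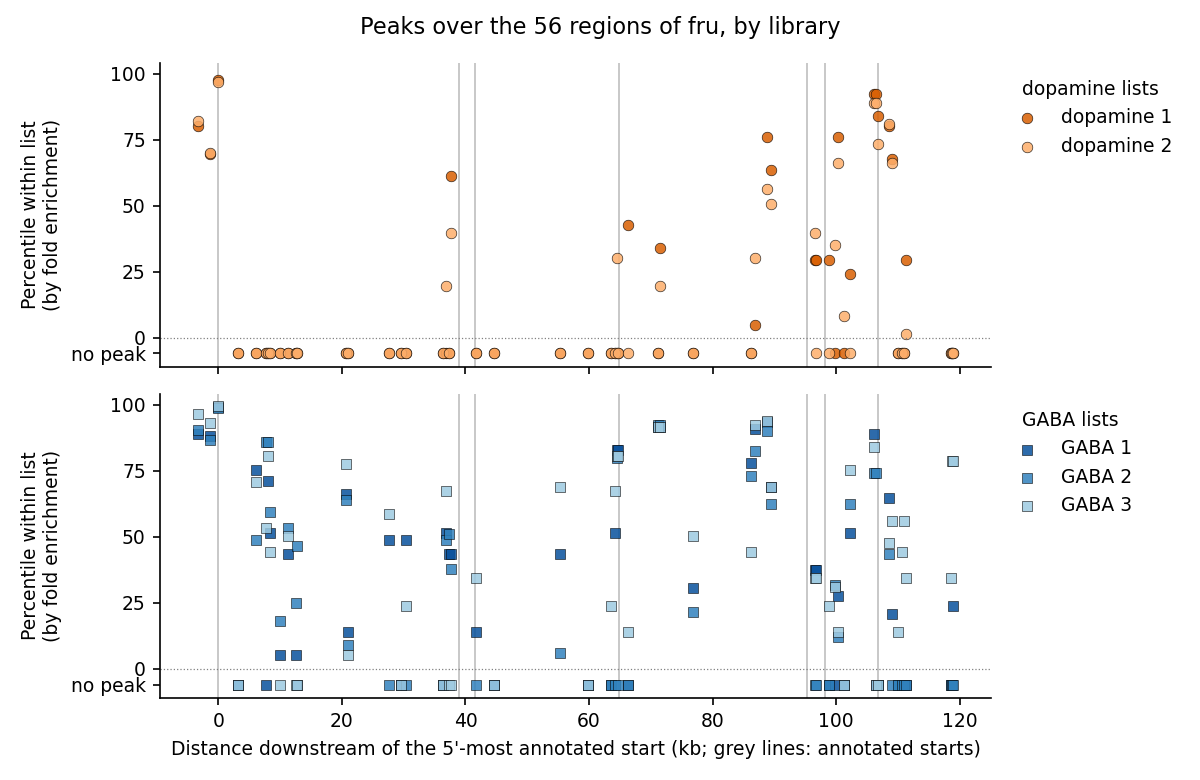
Percentile of the highest overlapping peak within its own list (y axis, by fold enrichment; "no peak" where a list has none) for the 56 *fru* regions against distance downstream of the most 5′ start (x axis, kb), with 2 dopamine lists above and 3 GABA lists below and annotated starts as grey lines. Dopamine points are missing from the 15 kb after the first start, where the GABA lists have peaks, and are densest past 100 kb.

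Within the introns of *fru*, regions 71.4 and 86.9 kb downstream of the distal start held the largest differences of the gene. The region at chr3R:18474013-18474322 read 2.33 and 2.39 in dopamine and 5.41, 5.65 and 3.86 in GABA libraries. The lowest GABA value was well above both dopamine values, and the region was 2.16-fold higher in GABA libraries (log2 difference -1.11, SE 0.155, adjusted p 1.05e-05). Summits in the 5 libraries fell within 71 bp of each other there. The region at chr3R:18458447-18458967 read 1.88 and 2.62 in dopamine and 5.19, 4.01 and 4.04 in GABA libraries. Again no values overlapped, at 2.16-fold (log2 difference -1.11, SE 0.178, adjusted p 4.54e-05). Another intronic region, chr3R:18456434-18457017, read 3.53 and 3.41 against 5.91, 5.17 and 4.35, and was 1.49-fold higher in GABA libraries (adjusted p 0.00401), a call lost without dopamine library 2 (adjusted p 0.111) and by -log10 q (0.0607).

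Past 100 kb the direction turned. The region 108.5 kb downstream (chr3R:18436803-18437289) read 3.76 and 4.89 in dopamine and 2.90, 2.32 and 2.15 in GABA libraries. Both dopamine values stood above all GABA values, and the region was 1.67-fold higher in dopamine libraries (log2 difference 0.74, SE 0.170, adjusted p 0.0014). The region about 0.6 kb upstream of the 3′-most start (chr3R:18439299-18439512) read 4.73 and 5.69 against 4.85, 3.32 and 3.12. Here GABA library 1 overlapped the dopamine values, and the call of 1.41-fold (adjusted p 0.0138) was lost without dopamine library 1 (adjusted p 0.161), without GABA library 2 (0.0581), with median centring (0.0586) and with the mean over summits (0.197). The region at 100.4 kb (chr3R:18445081-18445305) read 3.53 and 3.87 in dopamine and 2.06, 1.79 and 1.71 in GABA libraries. It was 1.86-fold higher in dopamine libraries (log2 difference 0.89, SE 0.170, adjusted p 2.52e-04). This region lies just past the 100 kb border, which was set after the values were seen. All 3 fitted *fru* regions past 100 kb were higher in dopamine libraries, and of the 7 nearer ones 4 were higher in GABA and 3 did not pass. Over the gene this was 30.0% and 40.0% of 10 regions, beside 25.3% and 27.8% of all fitted.

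Peaks were also counted by position over all 56 *fru* regions, the fitted ones included. This is a description, since the 15 and 100 kb borders were set after the values were seen. Within 15 kb of the distal start, each dopamine list had a peak in 3 of 12 regions and the GABA lists in 9, 11 and 8. From 15 to 100 kb, the dopamine lists had peaks in 9 regions each of 29 and the GABA lists in 21, 15 and 23. Past 100 kb, the dopamine lists had peaks in 8 regions each of 15 and the GABA lists in 6, 5 and 12. GABA list 3 thus had the most there, so by this count the groups did not separate past 100 kb. Percentiles there lay apart in 5 regions with dopamine above and in 1 with GABA above. Over all 80590 regions, the dopamine lists had peaks in 32602 and 32532 and the GABA lists in 39922, 39642 and 48502. In all, 10 *fru* regions (17.9%, beside 13.2% of all regions) had peaks in all 3 GABA lists and no dopamine list, among them 4 in the first 15 kb. One of the 10, chr3R:18474376-18474495, shared its GABA intervals with the region next to it. The tallest of the others, chr3R:18537491-18537628 at 8.03 kb, read 3.18, 4.43 and 2.94 in the GABA libraries.

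*dsx* encodes a DM-domain transcription factor with male and female splice forms, which sets sexual traits of body and nervous system. It lies on the minus strand of the same arm (chr3R:7924323-7967408), and its regions were assigned to 2 starts 4.62 kb apart. Its regions leaned to dopamine: of 5 fitted, 4 were higher in dopamine and none in GABA libraries, beside 25.3% and 27.8% of all regions. Of its 21 regions, 5 had peaks in both dopamine lists alone (23.8%, beside 8.42%) and 10 had dopamine percentiles wholly above GABA (47.6%, beside 16.1%), against 1 and 2 in the GABA direction.

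At the 5′ start of *dsx*, the highest peak whose interval reached within 250 bp read 4.73 and 7.28 in dopamine libraries. In GABA libraries it read 3.26, 2.75 and 2.73. All 5 libraries thus had a peak there, with the dopamine values above all GABA values, and the nearest summits lay 146 to 159 bp downstream of the start. The nearest region downstream, chr3R:7966921-7967351, was 2.11-fold higher in dopamine libraries (log2 difference 1.07, SE 0.150, adjusted p 1.08e-05). The next region, chr3R:7966217-7966832 at 0.88 kb, read 6.16 and 7.28 in dopamine and 4.48, 3.63 and 3.84 in GABA libraries. It was 1.90-fold higher in dopamine libraries (log2 difference 0.92, SE 0.138, adjusted p 2.37e-05), and summits agreed within 12 bp over the 5 lists. In dopamine library 2 both regions took the value 7.28 from a shared interval, so the calls are not independent. With the summit required inside the region, the log2 differences were 0.99 at chr3R:7966921 and 0.94 at chr3R:7966217. Upstream of the start, chr3R:7967756-7968281 read 4.96 and 5.35 in dopamine libraries, 2.82 and 2.36 in GABA libraries 1 and 3, and had no peak in GABA library 2.

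The second start of *dsx* differed less. The region over it, chr3R:7962725-7963076, read 4.96 and 6.259 in dopamine and 5.30, 4.89 and 4.09 in GABA libraries. The groups overlapped, and the call of 1.23-fold higher in dopamine (log2 difference 0.30, SE 0.120, adjusted p 0.0440) held by little. It was lost without dopamine 1 (adjusted p 0.234), dopamine 2 (0.0671), GABA 1 (0.0920) or GABA 2 (0.125), with median centring (0.405), and with the mean over summits, where the log2 difference was 0.05 (adjusted p 0.759). The strong peak just upstream, chr3R:7963438-7964075, read 6.24 and 9.10 in dopamine and 10.8, 10.98 and 8.65 in GABA libraries. It ranked above the percentile of 99.1 in every list and did not pass (log2 difference 0.09, SE 0.097, adjusted p 0.458).

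An intronic region 19.9 kb downstream, chr3R:7947210-7947904, was the tallest of *dsx* in the dopamine lists, where it ranked at percentiles 99.96 and 99.95. It read 7.44 and 9.90 in dopamine and 12.5, 10.6 and 8.43 in GABA libraries, and ranked between 99.3 and 99.7 of the GABA lists. Its direction depended on the scaling: it was 1.31-fold higher in dopamine libraries on the common distribution (log2 difference 0.38, SE 0.090, adjusted p 0.00148) and higher in GABA libraries with median centring (log2 difference -0.38, adjusted p 0.00895). Close by in the same intron, chr3R:7949006-7949152 and chr3R:7949317-7949568 had peaks in the dopamine lists alone. The former read 4.13 and 5.35 and the latter 4.43 and 5.23, between percentiles 84.6 and 89.5. Of the other 3 *dsx* regions with dopamine peaks alone, chr3R:7962570-7962657 and chr3R:7966053-7966167 shared an interval with the called region beside them. The single region with peaks in the GABA lists alone, the exonic chr3R:7960046-7960285, read 1.81, 1.60 and 2.71.

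**Figure D3:**
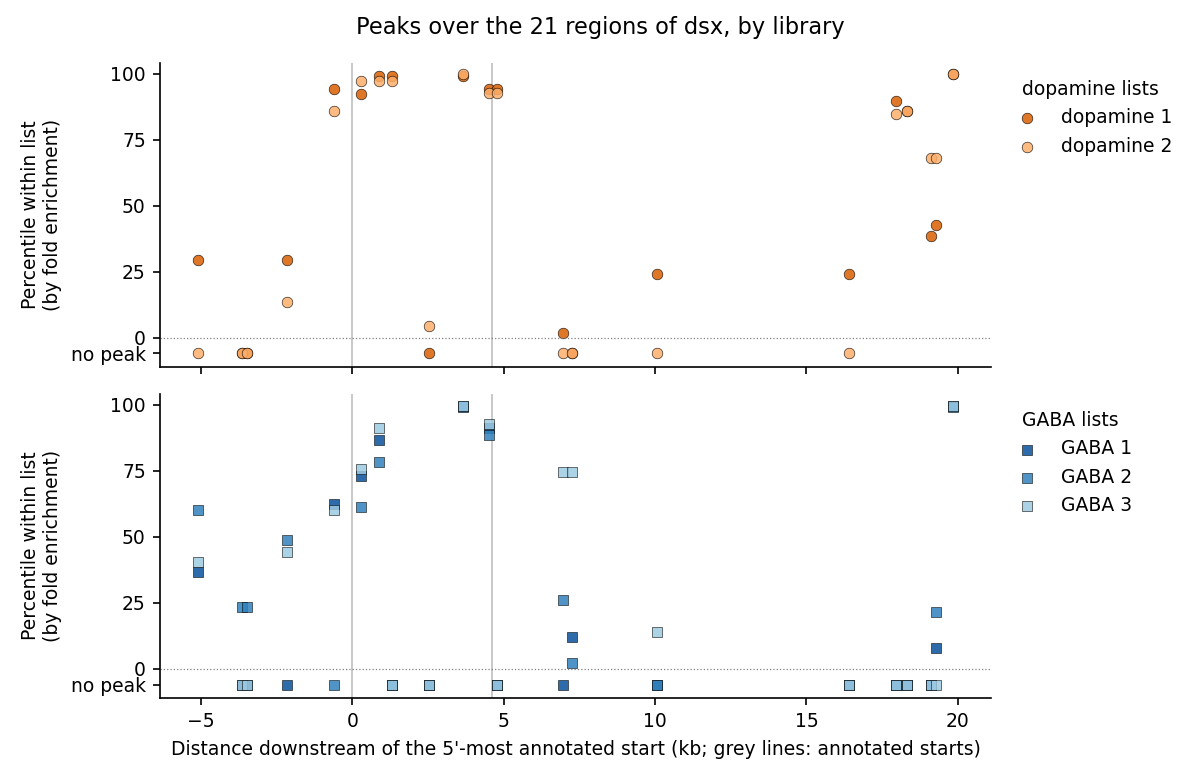
Percentile of the highest overlapping peak within its own list, by fold enrichment (y axis), for the 21 *dsx* regions. "No peak" marks a list that has none. The x axis is distance downstream of the 5′ start (kb). Dopamine lists are above and GABA lists below, and grey lines are the 2 starts to which the regions were assigned. In the called regions at 0.27 and 0.88 kb the dopamine points lie at percentiles 92.4 to 99.1 and the GABA points at 61.4 to 91.3, and around 18 kb only the dopamine lists have peaks.

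Counted over the gene and 2 kb on each side, *fru* and *dsx* thus went in opposite directions. The *fru* window held 22 and 23 separate peak intervals in dopamine libraries, against 47, 43 and 61 in GABA libraries. As a share of all intervals of a list, this was 0.0547% and 0.0586% against 0.0958%, 0.0855% and 0.0942%. The *dsx* window held 20 and 18 intervals in dopamine and 11, 10 and 12 in GABA lists, or 0.0497% and 0.0458% against 0.0224%, 0.0199% and 0.0185%. In neither gene did the shares of the groups overlap. How often such shares lie apart over all genes was not counted, so this has no background beside it. The covered length was 5518 and 6708 bp against 9914 to 12314 bp for *fru*, and 6191 and 6705 bp against 2876 to 3702 bp for *dsx*.

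*Sxl* lies on the minus strand of the X chromosome (chrX:7074550-7098053) and showed calls in both directions. Of 5 fitted regions, 2 were higher in GABA and 1 in dopamine libraries (beside 27.8% and 25.3% of all fitted). The largest difference of all member regions was in its intron at chrX:7089333-7089697, 8.54 kb downstream. It read 2.48 and 3.30 in dopamine and 7.59, 7.44 and 5.53 in GABA libraries. All GABA values were above both dopamine values, and the region was 2.36-fold higher in GABA libraries (log2 difference -1.24, SE 0.128, adjusted p 4.36e-07). At 2.58 kb, chrX:7095246-7095699 went the other way, with 4.06 and 4.67 in dopamine and 2.06, 1.96 and 2.04 in GABA libraries. It was 2.03-fold higher in dopamine libraries (log2 difference 1.02, SE 0.171, adjusted p 6.77e-05).

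At the starts of *Sxl* the groups were closer. The region over the 5′-most starts, chrX:7097617-7098172, read 3.91 and 5.23 in dopamine and 4.80, 5.45 and 3.84 in GABA libraries. The values overlapped and the difference was small (log2 difference -0.07, SE 0.128, adjusted p 0.649), with summits within 4 bp over the 5 lists. The region over a start 0.987 kb downstream, chrX:7096420-7097414, read 3.83 and 5.12 in dopamine and 6.98, 7.64 and 4.97 in GABA libraries. It was 1.42-fold higher in GABA libraries (adjusted p 0.00128), but with the mean over all summits in place of the highest the log2 difference was -0.03. The start 5.17 kb downstream had no peak within 1 kb in any list.

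*tra* is a small gene on the minus strand of arm 3L (chr3L:16590059-16591050) and had 3 fitted regions. The region at 0.34 kb, chr3L:16590511-16590912, read 2.70 and 3.19 in dopamine and 1.84, 1.95 and 1.42 in GABA libraries. Dopamine values were above all GABA values, and the region was 1.55-fold higher in dopamine libraries (log2 difference 0.63, SE 0.164, adjusted p 0.00352). With the summit required inside the region the log2 difference was 0.56 (adjusted p 0.00568). Dopamine library 2 read the same value here as in the region over the start. The region over the start, chr3L:16590972-16591142, read 3.16 and 3.19 in dopamine and 2.03, 2.54 and 2.36 in GABA libraries but did not pass (log2 difference 0.37, SE 0.182, adjusted p 0.0915). Upstream, where the regions also overlap the neighbour *spd-2*, chr3L:16591447-16591947 had peaks of 1.95 and 2.05 in the dopamine lists alone. The other, chr3L:16592034-16592948, read 2.404 and 2.28 against 1.69, 1.84 and 2.61 and overlapped between groups (adjusted p 0.80).

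*msl-2*, the limiting protein subunit of the dosage compensation complex, lies on the minus strand of arm 2L (chr2L:3462218-3466112). Its start region, chr2L:3465975-3466222, also overlaps the gene *ND-PDSW*, so the peak cannot be assigned to either gene. It was among the tallest of the member regions, with 5.71 and 7.97 in dopamine and 11.002, 13.6 and 7.60 in GABA libraries. The raw values overlapped, since GABA library 3 read below dopamine library 2, while the percentiles, 98.0 and 98.7 against 99.3 to 99.8, did not. The difference missed the threshold (log2 difference -0.22, SE 0.107, adjusted p 0.0928). It passed without GABA library 3 (adjusted p 0.0302), with the mean over summits (0.0300) and with median centring (log2 difference -0.73, adjusted p 1.81e-04). Its nearest summits lay within 10 bp of the start in every library. A region at 0.57 kb shared an interval with the start in dopamine library 1, and its estimate had a wide error (log2 difference 0.41, SE 0.555, adjusted p 0.591).

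The noncoding RNA genes *roX1* and *roX2* lie on the X chromosome and are known as entry sites of the dosage compensation complex. The regions of *roX1* (chrX:3857230-3862697, minus strand) were assigned to 3 starts. It was higher in dopamine libraries at the most 5′ of these and higher in GABA libraries 1.3 kb downstream. The region over that start, chrX:3862671-3862858, read 4.13 and 6.37 in dopamine and 2.97, 3.90 and 3.62 in GABA libraries. The raw values did not overlap, though the percentiles did, and the region was 1.45-fold higher in dopamine libraries (log2 difference 0.53, SE 0.167, adjusted p 0.0119), a call lost without dopamine library 2 (adjusted p 0.175) or GABA library 1 (0.0708). The region over the start 0.272 kb downstream did not pass (log2 difference 0.31, adjusted p 0.148). Within 250 bp of the start at 0.636 kb, dopamine library 1 had no peak. Dopamine library 2 read 2.96 there, and the GABA libraries 3.30, 2.86 and 2.87. The region within the transcribed gene, chrX:3861092-3861695, read 4.13 and 5.46 in dopamine and 7.81, 8.27 and 6.88 in GABA libraries. Here every GABA value was the higher one, at 1.51-fold (log2 difference -0.59, SE 0.111, adjusted p 2.29e-04). Of the 12 *roX1* regions, 8 overlap the neighbouring genes *ec* or *yin*, among them the single one with peaks in all 3 GABA lists and no dopamine list.

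*roX2* (chrX:11579065-11580432, plus strand) had 3 regions, and none had a peak in all 5 lists, so it was not fitted. Its start region, chrX:11578936-11579142, read 3.31 and 4.44 in the dopamine libraries and 1.86 and 3.01 in GABA libraries 1 and 2, with no peak in GABA library 3. The dopamine percentiles, 71.3 and 75.02, stood above those of the GABA lists, 15.04 and 68.2. The nearest summits lay 6 to 23 bp from the start in the 4 libraries with a peak there. The region upstream, chrX:11577722-11578759, overlaps *CG11695*, had peaks of 1.74 to 2.55 in 4 lists, and did not separate the groups.

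**Figure D4:**
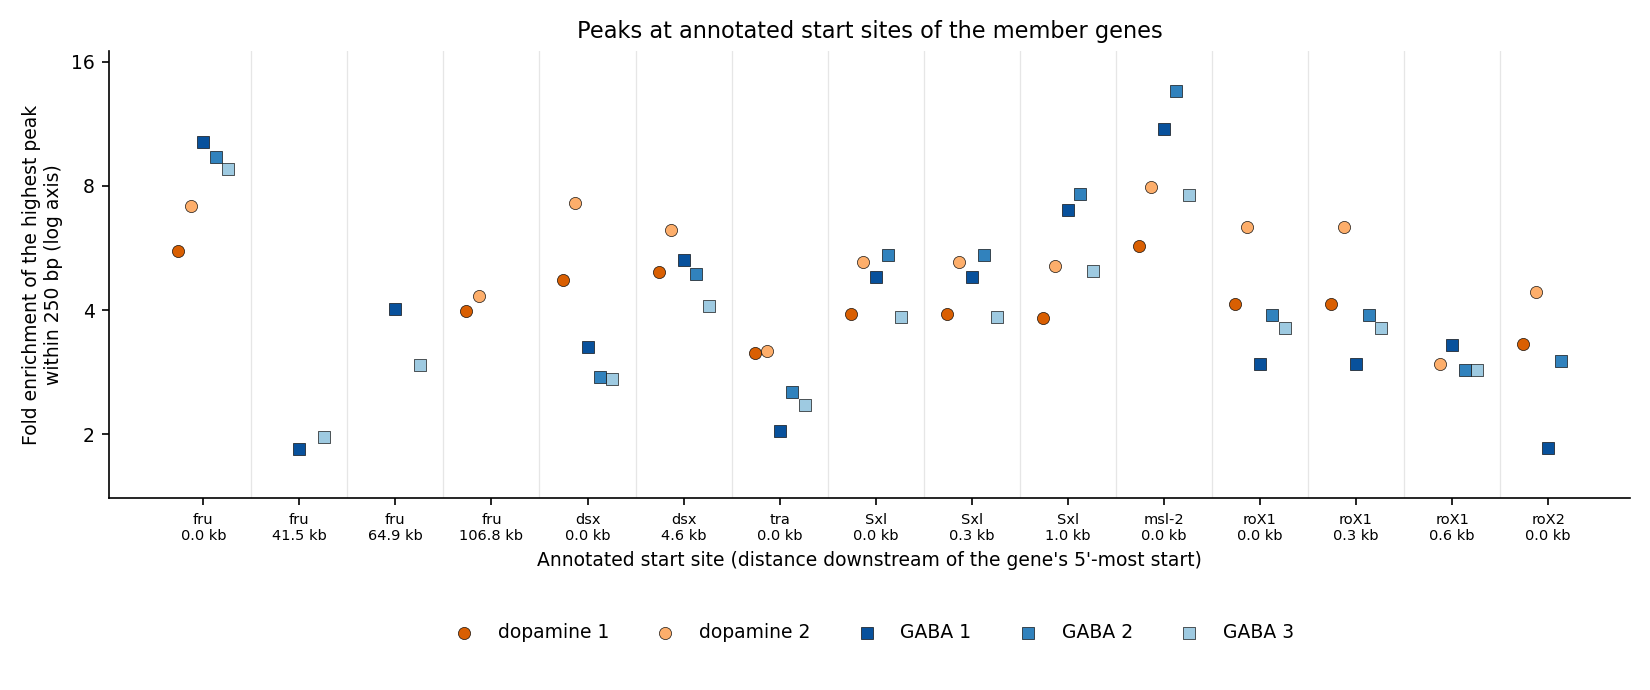
Fold enrichment (y axis, log scale) of the highest peak whose interval reaches within 250 bp of each start assigned to member regions, by library. The 15 starts with a peak in at least 1 list are drawn, with no point where a list has no peak. The 5′-most start of *fru* and the start of *msl-2* carry the tallest peaks in every list but dopamine 2. In that list the 5′ start of *dsx* (7.28) stands above that of *fru* (7.17). The 5′ start of *dsx* has both dopamine points above its GABA points.

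Over all member genes, the regions were assigned to 19 start sites, and 10 of them had a peak within 250 bp in all 5 lists. Only these starts were read, so a start that no region was nearest to is left out. Of all regions over a start site, 72.9% had a peak in all 5 lists, which counts regions and not starts. The 10 starts were 1 of 7 for *fru*, 2 of 2 for *dsx*, 1 of 1 for *tra* and 3 of 4 for *Sxl*. They were 1 of 1 for *msl-2*, 2 of 3 for *roX1* and 0 of 1 for *roX2*. In the 29 fitted regions a summit fell inside the region in every list, and the position of the highest such summit differed between libraries by a median of 108 bp (4 to 534 bp). The nearest-gene rule also leaves out regions that lie inside a member gene but were assigned to a neighbour, 3 in *fru*, 4 in *dsx*, 6 in *Sxl*, 5 in *msl-2* and 1 in *roX2*.

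Other genes of the pathways were read from chosen lists of 18, 7 and 9 genes. Of the 18 sex determination genes, 15 had regions here. Of their 24 fitted regions, 3 were higher in dopamine and 4 in GABA libraries (12.5% and 16.7%, beside 25.3% and 27.8% of all fitted). At starts, 1 of 11 regions passed, beside 31.7% higher in dopamine and 22.1% higher in GABA libraries of all start regions. It was that of *vir*, a cofactor of *Sxl* splicing (1.33-fold higher in dopamine, adjusted p 0.0214). Of 17 fitted regions of dosage compensation genes, 2 were higher in dopamine and 6 in GABA libraries (11.8% and 35.3%, beside the same 25.3% and 27.8%). At their 6 start regions, 3 passed, all higher in GABA libraries, as were 22.1% of all start regions. These were *mle*, the RNA helicase of the complex (1.76-fold, adjusted p 7.90e-05), *Clamp*, the adaptor protein that binds GA repeats (1.42-fold, adjusted p 0.00174), and *Unr*, the corepressor of *msl-2* translation (1.58-fold, adjusted p 2.55e-05). Of 25 fitted regions of partners and targets of Fru and Dsx, 7 were higher in dopamine and 8 in GABA libraries (28.0% and 32.0%), near the shares of all regions. Of their 5 start regions, 2 were higher in dopamine and 2 in GABA libraries, beside the same 31.7% and 22.1%. Those higher in dopamine were both of the transcription factor gene *lola* (1.53-fold, adjusted p 3.86e-04, where mean signal was higher). Those higher in GABA were of the histone deacetylase gene *HDAC1* (1.34-fold, adjusted p 0.00642) and of *bab1*, a target of Dsx in the abdomen (1.72-fold, adjusted p 6.46e-05).

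By Euclidean distance over the 5 normalized log2 values, the start-site regions most like that of *fru* among 5818 genes were those of *cnn* (0.0863), *gce* (0.142) and *Tsp39D* (0.145), beside a median distance of 1.97. Those most like the *dsx* region over the second start were *CG7536* (0.10), *gcl* (0.108) and *CG8272* (0.126), beside a median of 1.15. These are likenesses over 5 libraries only.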

How the data were processed

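Before deposit, the authors mapped reads to dmel_r6.26 (Bowtie2), marked duplicates (Picard), called the peaks of every library on its own (MACS2) and ran DESeq2 on read counts over regions. The settings of MACS2 are not given in the sources used here. Per the file headers and paper, the deposited lists hold a fold enrichment, -log10 p, -log10 q (the authors' q-value) and a score for each summit. The authors' table holds each region's mean signal over all libraries (reads divided by size factors), which was used, and a log2 fold change, its error and statistic and p-values of dopamine against GABA, which were not used. Names and gene spans were matched to RefSeq Release 6. From the lists, log2 fold enrichment was quantile-normalized and fitted with limma 3.58.1 (trend, robust) in R 4.3.3, with Benjamini-Hochberg adjustment. A percentile is a peak's rank within its own list. The value of a region or start window is the highest over all summits of the intervals that touch it, so that summit can lie outside. The fit was run on simulated data with the same noise level for all regions. That checks the code and does not bear on the calls made here. Overlaps and ranks were computed in Python 3.11.15. The alternatives were median centring, -log10 q in place of fold enrichment, mean over summits, a minimum -log10 q of 5, 50% coverage of the region, a signal filter, equal list lengths, wider start windows, a replicate block and leaving out each library. Regions named were, for each gene, at most 8 by mean signal among those with the highest signal, over a *fru* or *dsx* start, called, or separating the groups, and others singled out were chosen after their values were seen. Members and lists were chosen with earlier results of these data known. No sequence was printed and no motif was searched, since no genome was used here.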

Additional observations from a re-analysis of the deposited data

How the results depend on the processing

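Across the named regions, 233 of the recomputed differences kept direction and side of the threshold, 20 lost the call, 10 gained it and 6 turned sign. With 50% of a region covered, fewer regions could be fitted, and 1781 were higher in dopamine and 1831 in GABA libraries (4204 and 4608 as reported), with 6 and 3 member regions, and 11 members had dopamine peaks alone. With median centring, 11 member regions were higher in GABA libraries, beside 5072 of all regions. With a minimum -log10 q of 5, 4 were, beside 3099 of all regions. Within 1000 bp, 2 *fru* starts had a peak in all 5 lists. Leaving out 1 library, members with dopamine peaks alone ranged from 8 to 11, and those with dopamine percentiles above from 21 to 33. For these ranges, and for the 11 members under 50% coverage, no share over all regions is given. The sign turned at *dsx* chr3R:7947210 with median centring (-0.38, adjusted p 0.00895), at *Sxl* chrX:7097617 with the mean over summits (0.24), and at *tra* chr3L:16592034 with the mean over summits (-0.0061) and in leave-one-out fits (-0.12 to 0.29), none of the last 2 called. Correlations of deviations between dopamine and GABA libraries ran from -0.063 to 0.063. With 2 dopamine libraries each value recurs with the opposite sign, so they cannot settle whether library numbers pair the libraries. With the replicate block, 4152 regions were higher in dopamine and 4545 in GABA libraries, with 12 and 7 members; the *fru* region at chr3R:18546418 was lost (adjusted p 0.0953) and the *msl-2* start gained (0.0294). With the summit required inside the region, chosen after seeing the data, member counts were 10 and 7, beside 4334 and 4671 of all regions. The cause of these shifts was not tested. Read depth was not used, the lists may differ in peak calling settings, and a missing peak does not show closed chromatin.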

Other observations

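On the X chromosome, which the dosage compensation complex binds in males, 695 of 2816 fitted regions (24.7%) were higher in dopamine and 834 (29.6%) in GABA libraries. On the autosome arms the counts were 3509 (25.5%) and 3774 (27.4%) of 13785. The median log2 difference was -0.02 on the X and -0.02 on the autosome arms. The X held 20.9% regions with a peak in all 5 lists and the autosome arms 20.5%. The difference between X and autosomes was not tested.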
